A study of Mus musculus with 52 samples.

Results

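The miR-379 to miR-410 cluster is a run of miRNA genes in the distal part of the imprinted Dlk1-Dio3 domain of mouse chromosome 12. Its members were taken by name: every deposited mature miRNA, from either arm, whose hairpin name is 1 of 37 listed stems. The stems lie between miR-379 and miR-410, with the neighbouring miR-3072, and were listed with earlier results of these data known. They gave 74 mature miRNAs of the 1900 counted, 1 from the 5p arm and 1 from the 3p arm of each hairpin. On the mm10 assembly the 37 hairpins lie on the plus strand within 38.9 kb, from Mir379 (chr12:109709060-109709125) through Mir410 (chr12:109743715-109743795) to Mir3072 (chr12:109747878-109747960). In the annotation 24 hairpins lie outside the noncoding gene Mirg (chr12:109729764-109749460), 9 overlap an exon of Mirg and 4 lie in its introns. A further 27 mature miRNAs of the same domain, from 14 hairpins closer to the genes Dlk1 and Rtl1, were used for comparison.

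The study sequenced small RNA from the dentate gyrus (DG) and from the cornu ammonis (CA) of the hippocampus, each dissected under a microscope from mice of the strain C57B/6JRj. All mice were 20 weeks old per the labels and had lived in environmental enrichment (EE) or in the home cage (HC) for 10 or 2 weeks. The DG groups held 8 libraries of 10wEE_DG, 6 of 10wHC_DG, 5 of 2wEE_DG and 6 of 2wHC_DG. The CA groups held 8 libraries of 10wEE_CA, 6 of 10wHC_CA, 7 of 2wEE_CA and 6 of 2wHC_CA, so that DG had 25 and CA 27. Each library is bulk tissue, and the labels name neither its cells nor the animal behind it. The labels do not give separate animals for the libraries of a group, so p-values here measure only how these samples vary, and that variation may be technical.

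Mature miRNAs guide the silencing complex to messenger RNAs, mainly through the seed, the short stretch near the 5′ end that pairs with the target. In the Dlk1-Dio3 domain the miRNAs are made from noncoding transcripts of the maternal chromosome, and the miR-379 to miR-410 cluster is expressed mainly in brain. In cultured rat neurons its transcription is induced by activity through Mef2, and its member miR-134 acts on dendrites and spines there. miR-485 acts on synapse number, also in rat neurons, and mice that lack the cluster show altered anxiety-like and social behaviour.

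Mature sequences were found in RefSeq (GRCm38.p6) for 70 of the 74 members, and the ones shown here carry the results that follow. Capitals mark the seed, bases 2 to 8 from the 5′ end. The first are the most abundant members with a sequence, in order of their level.
miR-411-5p: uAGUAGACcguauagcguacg
miR-410-3p: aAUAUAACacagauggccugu
miR-381-3p: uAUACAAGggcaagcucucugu
miR-541-5p: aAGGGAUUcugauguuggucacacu
miR-300-3p: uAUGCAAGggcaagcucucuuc
miR-409-3p: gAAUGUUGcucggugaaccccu
miR-668-3p: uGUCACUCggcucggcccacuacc
The next ones are the pair furthest below CA in DG. They are followed by members that differed between HC libraries of 10 and 2 weeks in DG. The last, miR-376a-3p, did so in CA, and only without library 3 of 10wEE_CA.
miR-496a-3p: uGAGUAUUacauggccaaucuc
miR-495-3p: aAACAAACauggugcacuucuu
miR-382-5p: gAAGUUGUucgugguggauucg
miR-329-3p: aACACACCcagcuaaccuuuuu
miR-134-5p: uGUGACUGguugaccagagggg
miR-376a-3p: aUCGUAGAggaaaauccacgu

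The 70 sequences hold 65 different seeds, so that most members do not share a seed with another. Only 5 seeds occur in more than 1 member, 10 members in all, and the pairs with a counted member on both sides are shown to let their shared capitals be compared.
miR-379-5p: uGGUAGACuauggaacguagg
miR-1193-5p: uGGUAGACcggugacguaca
miR-379-3p: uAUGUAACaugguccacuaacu
miR-411-3p: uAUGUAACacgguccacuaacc
miR-376b-5p: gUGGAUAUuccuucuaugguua
miR-376c-5p: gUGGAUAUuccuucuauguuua
miR-410-5p: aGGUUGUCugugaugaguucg
miR-494-5p: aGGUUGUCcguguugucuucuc
In each of these pairs except miR-379-3p and miR-411-3p, 1 partner was too scarce to be tested. Another 12 members share their seed with counted miRNAs outside the list. Among these partners are miR-299b-3p (of miR-299a-3p), antisense at the same locus, and miR-370-5p (of miR-1193-3p), from the same domain. Others are those of miR-410-3p (miR-344d-3p and miR-344e-3p), miR-495-3p (miR-1192) and miR-329-3p (miR-362-3p).

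Levels within the cluster ranged widely. They are given as CPM, counts scaled to the library's total of miRNA counts, with no correction for ligation bias. Reads aligned to several places, 59.3 to 71.0% of reads, entered no count. Levels and ranks therefore hold among the counted reads only, where miR-124-3p, for example, had 57 counts in all libraries. Averaged over the 52 libraries, 8 members stood at 1000 CPM or more: miR-411-5p at 14280, miR-410-3p at 10360, miR-381-3p at 7493, miR-541-5p at 6564, miR-300-3p at 5463, miR-409-3p at 1650, miR-668-3p at 1124 and miR-487b-3p at 1045 CPM. These 8 took 81.3 to 86.6% of the cluster's counts in each library, and miR-411-5p ranked 17th of all 1900 miRNAs. Below them 25 members stood at 100 to 1000 CPM, 18 at 10 to 100 CPM and 23 under 10 CPM. No count was found in any library for 4 of the last class, namely both arms of miR-654, miR-1197-5p and miR-758-5p, while 56 members had a count in every library.

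The arms of a hairpin were rarely equal. The 3p arm was the higher in 20 stems and the 5p arm in 16. The mean level of miR-410-3p was 4812 times that of miR-410-5p, and miR-668-3p exceeded miR-668-5p by a factor of 1690, whereas miR-541-5p exceeded miR-541-3p by a factor of 1478. At the other end, the arms of miR-379 differed by a factor of 1.16, those of miR-299a by 1.06 and those of miR-666 by 1.03. miR-299a has an antisense partner, miR-299b, and with the strand setting of the counting not given in the sources used here, reads of that pair cannot be told apart.

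**Figure D1:**
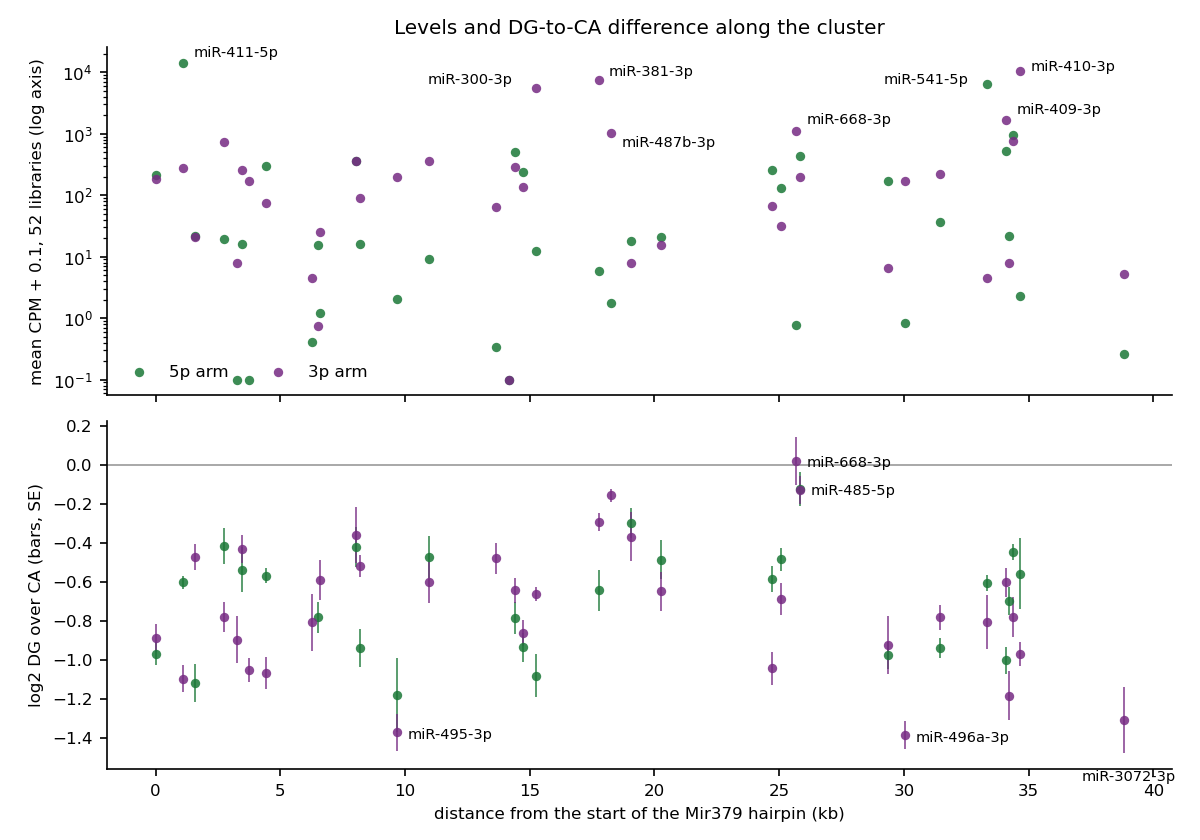
Upper panel, mean level of each arm (CPM + 0.1, log axis, 52 libraries); lower panel, log2 fold change of DG over CA with its standard error for the 62 tested members; both against distance from the start of the Mir379 hairpin in kb, with green for 5p and purple for 3p arms. High and low members alternate along the 38.9 kb, and 61 of the 62 points in the lower panel lie under 0, the exception being miR-668-3p (0.02), with miR-485-5p (-0.12) near the line.

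Depth and 1 library bear on the comparisons. DG libraries held 1117213 to 3159957 miRNA counts (median 2093319) and CA libraries 480792 to 6706855 (median 4189269), the lowest being library 3 of 10wEE_CA, without which the lowest CA library held 3144399. In that library the cluster took 10.5% of counts, against 6.59 to 6.90% in the other 7 libraries of its group. Of the 51 members with a mean of at least 10 CPM, 28 stood above and 18 below the range of the other 7 libraries. The members above had a median GC content of 40.9% (23.8 to 47.6%, 27 members with a sequence), and those below one of 54.5% (45.5 to 72.7%, 17 members). For example, miR-369-3p stood at 3925 CPM in library 3 against 717 to 960 CPM in the others, and miR-668-3p at 52 CPM against 1071 to 1336 CPM. The main results that involve CA are therefore given with and without this library.

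The first comparison asks how the cluster differs between the 2 subregions. The cluster took a smaller share of miRNA counts in DG than in CA in every library. The share was 3.39 to 5.01% in DG (median 4.53%, n = 25) and 6.07 to 10.5% in CA (median 6.69%, n = 27), or 6.07 to 7.09% in CA without library 3. The highest DG library thus lay below the lowest CA library. The counts of the cluster divided by those of the other miRNAs of the domain were 0.217 to 0.259 in DG and 0.217 to 0.249 in CA without library 3, which itself had 0.879. The other miRNAs took 14.1 to 21.3% of counts in DG and 26.2 to 30.6% in CA without library 3, also a smaller share in DG. Most of those counts were miR-127, and without it the other miRNAs took 4.30 to 6.64% in DG (median 5.30%) against 6.09 to 8.70% in CA without library 3 (median 7.12%), with overlap. In bulk tissue, fewer cells of a type and less RNA per cell cannot be told apart.

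**Figure D2:**
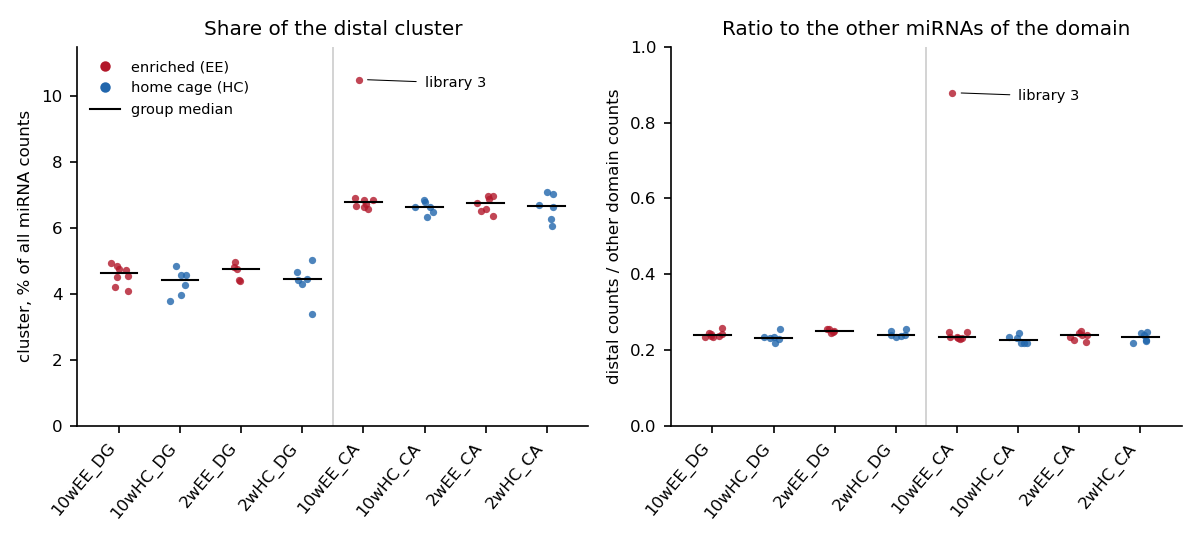
Left, share of all miRNA counts taken by the 74 members, in percent; right, their counts divided by those of the 27 other miRNAs of the domain; each point is a library, red for EE and blue for HC, with the group median as a line. All 25 DG libraries (3.39 to 5.01%) lie under all 27 CA libraries, and library 3 of 10wEE_CA stands apart on both axes (10.5% and 0.879).

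By member, the difference was broad. Of 62 members with enough counts to be tested, 59 were lower in DG and 0 were higher (edgeR quasi-likelihood test, Benjamini-Hochberg adjusted p under 0.05 over all 593 miRNAs tested). Among all miRNAs tested, 41.7% were lower and 36.1% higher. Without library 3 the count was again 59 lower and 0 higher, beside 40.6% lower and 38.9% higher among all. The members' median log2 fold change was -0.67 (-0.63 without library 3), that is, a level in DG 0.627 times that in CA, while the median over all tested miRNAs was -0.04 (0.0044 without library 3). The 25 tested miRNAs of the rest of the domain had a median of -0.58, with 21 lower and 1 higher, and the 506 miRNAs outside the domain one of 0.10. Every one of the 25 DG libraries stood below the CA median in 40 members, against 20.1% of all miRNAs tested, and at least 20 did so in 57 members, against 36.4%. In 16 members (18 without library 3) every DG library lay below every CA library, as it did in 6.58% (9.44%) of all miRNAs tested.

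The lowest in DG relative to CA was miR-496a-3p. It stood at 53.6, 97.9 and 119 CPM in DG (lowest, median and highest of 25 libraries), against 184, 229.8 and 526 CPM in CA, where the highest was library 3 and the next 303 CPM. The ranges did not overlap, and the log2 fold change was -1.39 ± 0.07 (SE; edgeR adjusted p = 1.83e-23). miR-495-3p, which shares its seed with miR-1192, followed with 44.2, 119 and 173 CPM in DG against 202, 266 and 580 CPM in CA. Its log2 fold change was -1.37 ± 0.10, again without overlap. The other 4 of the 6 largest differences were in scarce arms, miR-3072-3p (-1.31 ± 0.17), miR-412-3p (-1.18 ± 0.13), miR-495-5p (-1.18 ± 0.19) and miR-299a-5p (-1.12 ± 0.10). miR-3072-3p, of the last hairpin, stood at 0, 3.13 and 7.0 CPM in DG against 2.08, 7.53 and 10.3 CPM in CA, levels near the 3 counts that 0.949 to 2.69 CPM were worth in a DG library. miR-299a-5p stood at 3.94, 13.0 and 21.8 CPM in DG against 17.8, 29.6 and 43.7 CPM in CA. Both overlapped between the regions.

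Among the abundant members, miR-410-3p differed most. It stood at 4654, 7147 and 8480 CPM in DG against 10880, 12890 and 31740 CPM in CA (highest 15200 without library 3). Even its highest DG library lay under the lowest CA library, and its log2 fold change was -0.97 ± 0.06 (adjusted p = 3.89e-20; -0.88 without library 3). miR-411-5p, with 8842, 11280 and 13240 CPM in DG against 14140, 16650 and 24170 CPM in CA, had -0.60 ± 0.04, and miR-300-3p, with 3318, 4270 and 4958 CPM in DG against 5514, 6647 and 7075 CPM in CA, had -0.66 ± 0.04. Neither overlapped between the regions. miR-541-5p and miR-409-3p had -0.60 each, of which miR-541-5p did not overlap and miR-409-3p did. The smallest passing differences were also in abundant members: miR-381-3p, at 4342, 6942 and 8370 CPM in DG against 6286, 8106 and 13440 CPM in CA, had -0.29 ± 0.05, and miR-487b-3p had -0.16 ± 0.03. The regions overlapped in both.

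The members best known from neurons did not move by 1 amount. miR-379-5p, the first miRNA of the cluster, stood at 104, 142 and 205 CPM in DG against 215, 275 and 418 CPM in CA, without overlap (log2 fold change -0.97 ± 0.06). miR-134-5p stood at 67.8, 111 and 157 CPM in DG against 99.8, 149 and 176 CPM in CA, with overlap (-0.48 ± 0.06). The miR-376 arms, which in brain are known to be edited by deaminases, ranged from -0.93 in miR-376a-5p and -0.86 in miR-376a-3p over -0.78 in miR-376b-5p and -0.64 in miR-376b-3p to -0.48 in miR-376c-3p. Every one of these 5 was lower in DG. The hairpins of miR-376 are closely related copies and reads aligned to several places entered no count, so that the levels of these arms are uncertain. miR-376c-5p, which shares its seed with miR-376b-5p, had 44 counts in all and was not tested.

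The 3 members that did not pass were miR-485-3p (-0.13 ± 0.07, adjusted p = 0.0963), miR-485-5p (-0.12 ± 0.09, adjusted p = 0.189) and miR-668-3p (0.02 ± 0.12, adjusted p = 0.878). miR-668-3p stood at 614, 1092 and 1680 CPM in DG against 52, 1160 and 1336 CPM in CA, and miR-485-5p at 289, 382 and 633 CPM in DG against 133, 458 and 550 CPM in CA. Both lowest CA values were library 3. The hairpins of miR-668 and miR-485 are neighbours, ranks 27 and 28 of 37 along the cluster.

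**Figure D3:**
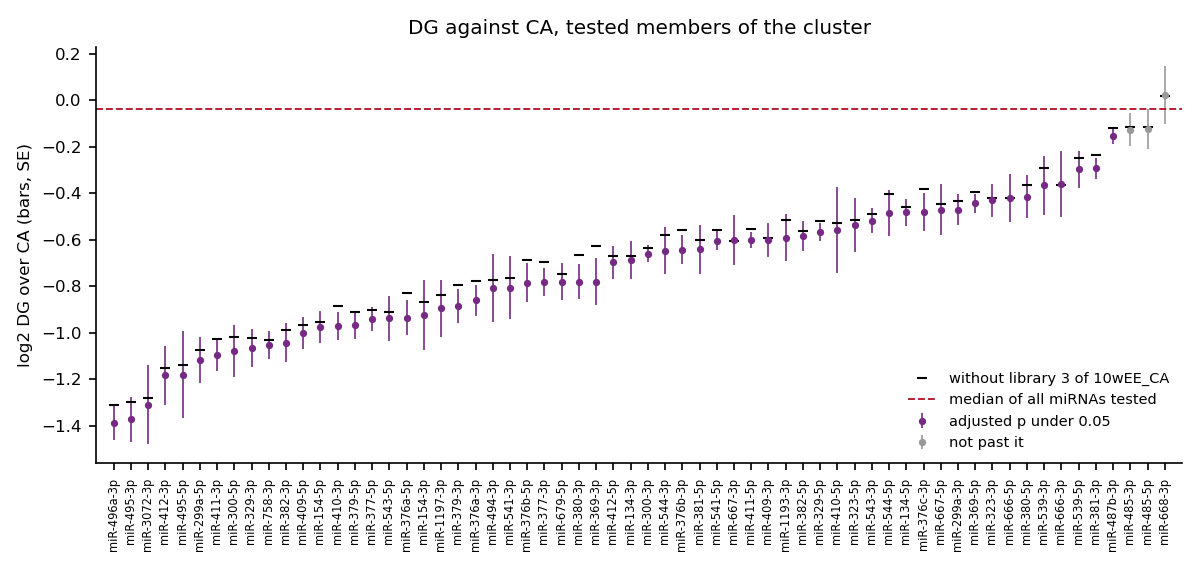
Log2 fold change of DG over CA with its standard error for each of the 62 tested members, ordered by size, with black dashes for the value without library 3 of 10wEE_CA and a red line at the median of all tested miRNAs (-0.04). The values run from -1.39 in miR-496a-3p to 0.02 in miR-668-3p, and the 3 grey points at the right did not pass.

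The size of the difference was not ordered along the chromosome. Across the 62 tested members, the rank along the cluster and the log2 fold change had a Pearson r of 0.019 (0.016 without library 3), and the log2 mean level and the fold change one of 0.23 (0.24). These values describe members that share libraries, and no test was made of them. Hairpins at the ends and in the middle illustrate it, with miR-379-5p at -0.97, miR-381-3p at -0.29, miR-668-3p at 0.02 and miR-410-3p at -0.97.

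GC content moved with the difference, and some other signals also differed between the regions. Among 58 members with a sequence, GC content and log2 fold change had an r of 0.34 (0.27 without library 3), and among 437 miRNAs outside the domain one of 0.22 (0.19 among 438 without library 3). Members under 40% GC had a median of -0.83 (n = 14) and those at 60% or over one of -0.54 (n = 9), while the miRNAs outside the domain had -0.21 and 0.30 in these classes. Without library 3 the members had -0.74 and -0.51, and the others -0.12 and 0.32. In each of 4 GC classes the members' median lay below that of the others, with and without library 3. The summed level of oligodendrocyte miRNAs was 2002 to 3869 CPM in DG against 6048 to 12510 CPM in CA. All 3 tested were lower. That of choroid plexus and ependyma miRNAs was 775 to 2294 CPM in DG against 2786 to 9359 CPM in CA. Of these, 7 of 9 were lower and 2 higher. Most oligodendrocyte counts were miR-338-3p (783120 in all libraries), while miR-219a-5p had 1. Most choroid plexus and ependyma counts were miR-34c-5p (649463). The activity-induced miR-132 and miR-212 summed to 3637 to 7614 CPM in DG against 5561 to 8316 CPM in CA, with 4 of 4 arms lower and a median log2 fold change of -0.65, near the cluster's -0.67. Erythrocyte miRNAs summed to 167 to 518 CPM in DG against 270.2 to 1115 CPM in CA (highest 532 without library 3), with 2 of 4 tested lower. Of microglia and leukocyte miRNAs 0 of 3 passed, and of vascular miRNAs 0 of 4. The vascular sum varied widely within DG, at 13140 to 63610 CPM against 18040 to 33810 CPM in CA. It was 58690 CPM in library 6 of 2wHC_DG, where the cluster's share was lowest (3.39%). The highest, library 7 of 10wEE_DG, had a share of 4.71%. Neuronal miRNAs summed to 20190 to 33040 CPM in DG against 16730 to 32330 CPM in CA, with 3 of 7 tested higher and 1 lower, although miR-124-3p, the defining member, had only 57 counts in all libraries. The share of reads aligned to more than 1 place was 61.5 to 71.0% in DG against 59.3 to 70.2% in CA. The part of these in the result was not tested.

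The region difference was also present within each housing group. Within 10wEE, 10wHC, 2wEE and 2wHC, 55, 48, 48 and 53 members were lower in DG and 0 higher, where 33.2%, 27.8%, 31.2% and 31.4% of all tested miRNAs were lower and 25.1%, 21.9%, 26.6% and 28.3% higher. Without library 3 the counts were 57, 49, 49 and 56 lower, beside 30.8%, 29.8%, 32.3% and 35.2% of all, and miR-668-3p was higher in 2wEE (0.42 ± 0.12) and 2wHC (0.32 ± 0.12), the 1 member higher in either, where 31.1%, 27.3%, 30.8% and 31.5% of all were higher. The medians were -0.71, -0.66, -0.68 and -0.77 with all libraries and -0.61, -0.62, -0.63 and -0.77 without library 3. A negative value in all 4 groups was found in 59 of 62 members and 40.6% of all tested miRNAs, or in 56 members and 37.5% of all without library 3. Each of these contrasts compares its own libraries, but all 4 come from 1 fit and share its scaling and spread, so they are not independent.

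The balance between the arms of a hairpin compares 2 products of the same precursor within a library, so that library totals cancel. Because 0.5 is added to each count, the ratio of a scarce arm still moves with depth, which was lower in DG. Among 22 member hairpins with at least 20 counts per library on average for each arm, the log2 ratio of 5p to 3p differed between DG and CA in 12 (limma, adjusted p under 0.05 over 140 hairpins). Among all 140 it differed in 58.6% (higher in 25.7%, lower in 32.9%), and the median size of the shift was 0.19 in member hairpins against 0.30 in the others. The ratio was higher in DG in 6 hairpins, led by miR-329, where 5p exceeded 3p by a factor of 5.07 in DG against 3.54 in CA (difference 0.56 ± 0.08, adjusted p = 1.01e-07). The next were miR-412 (3.5 in DG against 2.50 in CA, 0.53 ± 0.14), miR-382 (4.76 in DG against 3.32 in CA) and miR-411 (66.7 in DG against 46.9 in CA). It was lower in DG in the other 6, led by miR-299a, where the ratio was 0.738 in DG against 1.26 in CA (-0.76 ± 0.12, adjusted p = 3.02e-07), so that the higher counted arm was 3p in DG and 5p in CA. Both its arms were scarce (means of 21.9 and 20.7 CPM). As its reads cannot be told apart from those of miR-299b, the ratio may reflect either hairpin. The next were miR-300 (0.00169 in DG against 0.00245 in CA, -0.54 ± 0.15), miR-543 (0.144 in DG against 0.197 in CA, -0.47 ± 0.10) and miR-409 (0.261 in DG against 0.346 in CA). With 5 in place of 0.5 added to each count, miR-412 (0.18, adjusted p = 0.159) and miR-300 (-0.16, adjusted p = 0.227) no longer passed, and the other 6 of these hairpins did. Without library 3 the count was 13, and 67.1% of all 140 differed.

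The design sets enrichment against the home cage in each region and at each time. No member passed in EE against HC in either region at either time (edgeR, adjusted p under 0.05), where 0.381% of all miRNAs tested passed in DG at 10 weeks, 0.571% in DG at 2 weeks and 0% in CA at both. DESeq2 also called 0 members, beside 0.381% and 0.762% of all in DG at 10 and 2 weeks and 0% and 0.174% in CA. Unadjusted p-values under 0.05 were found in 4 of 59 members in DG at 10 weeks, 3 of 59 in DG at 2 weeks, 3 of 63 in CA at 10 weeks and 1 of 63 in CA at 2 weeks. Among all miRNAs the shares at that p were 5.52% in DG at both times, 5.16% in CA at 10 weeks and 6.02% in CA at 2 weeks, so that the members' counts lay near or under the background. Without library 3 there were 2 members in CA at 10 weeks (7.76% of all) and 2 at 2 weeks (10.5%), and 0 passed adjustment at 10 weeks (0.517% of all). The median over members was -0.02 and 0.02 in DG at 10 and 2 weeks, and 0.0026 and -0.04 in CA. No member passed in the tests of whether the effect differed between times or between regions, in which 0% of all miRNAs passed. At an unadjusted p under 0.05 there were 2 members in each test between times (4% of all in DG, 2.24% in CA), and 0 at 10 weeks (4.22%) and 1 at 2 weeks (2.87%) between regions.

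miR-381-3p was among the 3 members with the smallest p in each of these contrasts. In 2wEE_CA it stood at 7953, 8192 and 8796 CPM against 6286, 7010 and 8596 CPM in 2wHC_CA. All 7 EE libraries lay above the HC median, and the log2 fold change was 0.23 ± 0.09 (edgeR adjusted p = 0.665). Without library 3 of 10wEE_CA, a group outside this contrast whose spread the fit shares, it passed at 0.22 ± 0.05 (adjusted p = 0.0322; 0.512 to 0.965 over the alternatives that keep all libraries), where 1.21% of all tested miRNAs were higher. In 10wEE_CA it stood at 7820, 8397 and 13440 CPM against 7380, 8043 and 8352 CPM in 10wHC_CA, with 0.19 ± 0.09 (0.098 without library 3, which is the 13440 CPM). In 10wEE_DG it stood at 5964, 7567 and 7782 CPM against 5384, 6213 and 7615 CPM in 10wHC_DG, with 0.21 ± 0.10 and 7 of 8 EE libraries above the HC median. The 5 libraries of 2wEE_DG held 7438, 6760, 8370, 6088 and 6942 CPM against 4342, 6464 and 7250 CPM in 2wHC_DG (0.22 ± 0.11, 4 of 5 above). None of the last 3 passed.

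miR-299a-3p was near the top in both DG contrasts. It stood at 17.4, 21.4 and 25.7 CPM in 10wEE_DG against 11.9, 16.7 and 24.0 CPM in 10wHC_DG, with all 8 EE libraries above the HC median (0.34 ± 0.14, adjusted p = 0.709). The 5 libraries of 2wEE_DG held 14.8, 16.2, 20.3, 15.8 and 19.7 CPM against 11.8, 12.7 and 14.8 CPM in 2wHC_DG (0.38 ± 0.17, adjusted p = 0.739). These sets overlapped, and neither value passed. miR-134-3p in DG at 10 weeks (-0.29 ± 0.12, 8 of 8 EE libraries below the HC median), miR-409-5p in DG at 2 weeks (-0.31 ± 0.15, 4 of 5 below), and miR-494-3p (0.41 ± 0.17, 7 of 8 above) and miR-411-5p (0.15 ± 0.07, 8 of 8 above) in CA at 10 weeks did not pass. In CA at 2 weeks, miR-667-5p (0.24 ± 0.17) and miR-382-3p (-0.15 ± 0.11) did not pass.

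**Figure D4:**
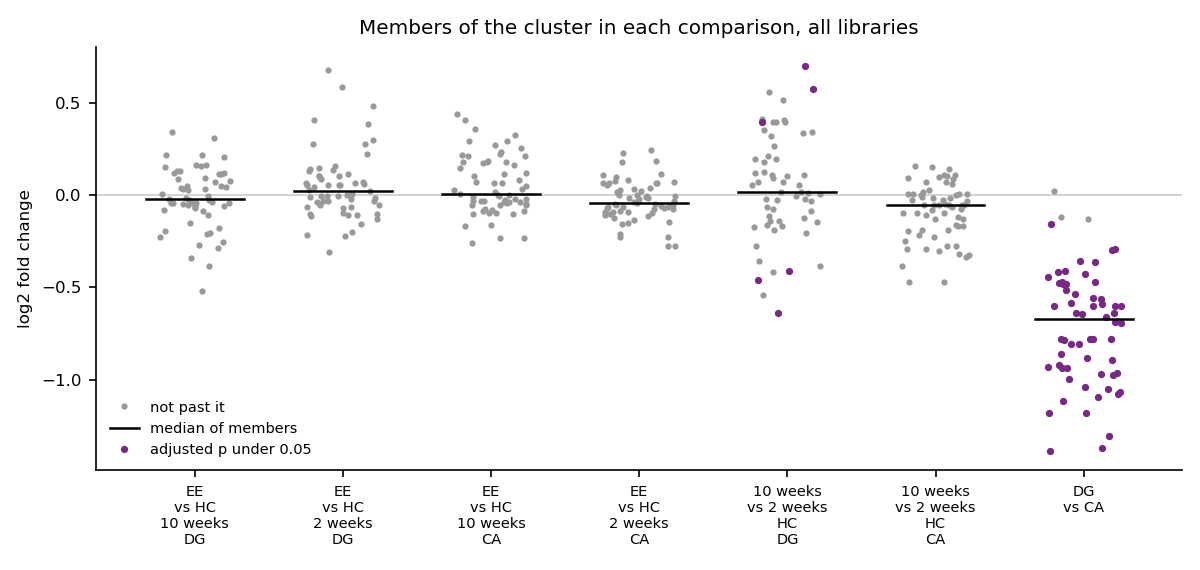
Log2 fold change of each tested member in 7 comparisons (points), with the members' median as a line and purple for an adjusted p under 0.05. The EE against HC columns centre near 0 with no purple point, the 10 against 2 weeks column of HC in DG holds 6, and the DG against CA column lies at a median of -0.67.

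Home cage libraries labelled 10 and 2 weeks were also compared. All mice had the same age per the labels, so these groups differ in neither age nor enrichment. In DG and in CA, time in this contrast cannot be told apart from cohort or processing, which the labels do not give. In DG, 3 members were higher and 3 lower in 10wHC_DG than in 2wHC_DG, of 59 tested. Among all 525 miRNAs 7.62% were higher and 8.38% lower, 16% in all, a larger share than the 6 of 59 in the cluster. miR-382-5p stood at 239, 256 and 344 CPM in 10wHC_DG against 107, 179.6 and 215 CPM in 2wHC_DG, without overlap (0.57 ± 0.15, edgeR adjusted p = 0.0126). miR-668-3p stood at 614, 954 and 1079 CPM in 10wHC_DG against 1092, 1432 and 1497 CPM in 2wHC_DG, again without overlap (-0.64 ± 0.13, adjusted p = 0.0022). These 2 passed in each of 12 fits that left out 1 library of either group.

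The other 4 calls depended on single libraries. miR-329-3p, which shares its seed with miR-362-3p, stood at 48.4, 64.8 and 87.5 CPM in 10wHC_DG against 18.1, 35.5 and 59.5 CPM in 2wHC_DG (0.70 ± 0.21, adjusted p = 0.0261). miR-134-5p stood at 98.2, 133 and 157 CPM in 10wHC_DG against 67.8, 95.4 and 117 CPM in 2wHC_DG (0.39 ± 0.13, adjusted p = 0.0419). All 6 libraries of 10wHC_DG lay above the 2wHC_DG median in both, and the ranges overlapped. miR-485-5p stood at 318, 373 and 404 CPM in 10wHC_DG against 367, 472 and 603 CPM in 2wHC_DG (-0.46 ± 0.14, adjusted p = 0.0286). miR-409-5p stood at 249, 313 and 368 CPM in 10wHC_DG against 257, 423 and 513 CPM in 2wHC_DG (-0.41 ± 0.14, adjusted p = 0.044). All 6 libraries of 10wHC_DG lay below the 2wHC_DG median in these, with overlap. With 1 library left out, miR-329-3p passed in 5, miR-134-5p in 3, miR-485-5p in 7 and miR-409-5p in 3 of the 12 fits.

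GC content moved with this contrast too, with an r of -0.40 over 55 members and -0.26 over 384 other miRNAs. Among the called members, miR-668-3p (lower at 10 weeks) has 66.7% GC and miR-329-3p (higher) has 40.9%. The pair of miR-134-5p (higher, 59.1% GC) and miR-409-5p (lower, 47.8% GC) goes the other way. miR-382-5p (higher) lies between these last values, and no sequence was found for miR-485-5p. The calls thus did not sort by GC content. The share of reads aligned to more than 1 place was 64.1 to 71.0% in 10wHC_DG against 62.2 to 66.4% in 2wHC_DG. The share of reads in no annotated miRNA was 5.07 to 6.34% in 10wHC_DG against 3.89 to 4.45% in 2wHC_DG, without overlap. It did not overlap either between 10wEE_DG (4.88 to 5.62%) and 2wEE_DG (3.81 to 4.33%), between 10wHC_CA (4.29 to 4.78%) and 2wHC_CA (3.38 to 3.91%), or between 10wEE_CA (4.39 to 4.77%) and 2wEE_CA (3.52 to 3.96%). The part of these in the results by time was not tested. The enriched libraries, which were not tested for time alone, held miR-668-3p at 799, 1002 and 1166 CPM in 10wEE_DG, against 1147, 1296, 1187, 1680 and 1632 CPM in the 5 libraries of 2wEE_DG. For miR-382-5p they held 151, 203 and 329 CPM in 10wEE_DG, against 162, 161.5, 189, 138 and 178 CPM in 2wEE_DG. In miR-668-3p 7 of 8 libraries of 10wEE_DG lay below every 2wEE_DG library, and in miR-382-5p 5 of 8 lay above every one.

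In CA, 0 of 63 members differed between 10wHC_CA and 2wHC_CA with all libraries, by edgeR or DESeq2, with 2 at an unadjusted p under 0.05 (6.02% of all). Among all miRNAs 0% passed by edgeR and 0.521% by DESeq2. Without library 3 of 10wEE_CA, 2 members were lower and 0 higher, where 1.21% of all tested miRNAs were lower and 0.862% higher. miR-376a-3p stood at 147, 152 and 159 CPM in 10wHC_CA against 173, 195.5 and 219 CPM in 2wHC_CA, without overlap (-0.33 ± 0.06, adjusted p = 0.00453; 0.538 to 0.782 over the alternatives that keep all libraries). miR-412-5p stood at 19.8, 22.8 and 25.5 CPM in 10wHC_CA against 25.4, 30.2 and 40.4 CPM in 2wHC_CA, with a slight overlap (-0.40 ± 0.10, adjusted p = 0.0236; 0.0726 to 0.762). In the enriched libraries miR-376a-3p stood at 119, 131 and 347 CPM in 10wEE_CA against 164, 175 and 198 CPM in 2wEE_CA. There 7 of 8 libraries of 10wEE_CA lay below every 2wEE_CA library, and library 3 lay above every one.

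The region difference at 10 weeks minus that at 2 weeks was tested after the pattern of miR-668-3p was seen. With all libraries 0 members passed in HC and 0 in EE (10 and 9 at an unadjusted p under 0.05; edgeR), where 2.19% and 1.35% of all tested miRNAs passed and 15.9% and 17.7% were at that unadjusted p, shares near those of the cluster. DESeq2 called 2 members in each, beside 5.93% and 7.47% of all. Without library 3, 5 members passed in HC and 5 in EE, beside 7.07% and 10.6% of all tested miRNAs, again near the cluster's shares. miR-668-3p, miR-485-5p and miR-376a-3p were in both sets. The difference for miR-668-3p was -0.73 ± 0.17 in HC (adjusted p = 0.00411) and -0.68 ± 0.16 in EE (adjusted p = 0.00494), and its log2 fold change of DG over CA was -0.26 and -0.41 in 10wEE and 10wHC, against 0.42 and 0.32 in 2wEE and 2wHC. Without library 3 its DG level was thus below CA at 10 weeks and above CA at 2 weeks. With all libraries the values were -0.15 and -0.45 in 10wEE and 10wHC, against 0.37 and 0.32 in 2wEE and 2wHC. None of these passed (edgeR adjusted p = 0.14 to 0.587). For miR-485-5p the difference was -0.58 ± 0.18 in HC and -0.75 ± 0.17 in EE, and for miR-376a-3p it was 0.52 ± 0.15 in HC and 0.62 ± 0.14 in EE. miR-382-5p and miR-329-3p passed in HC, with 0.65 ± 0.17 and 0.71 ± 0.23, and miR-485-3p and miR-134-3p passed in EE, with -0.51 ± 0.17 and -0.50 ± 0.15. The HC and EE values come from separate libraries but from 1 fit, whose scaling and spread they share. In both, time cannot be told apart from cohort or processing, which the labels do not give.

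**Figure D5:**
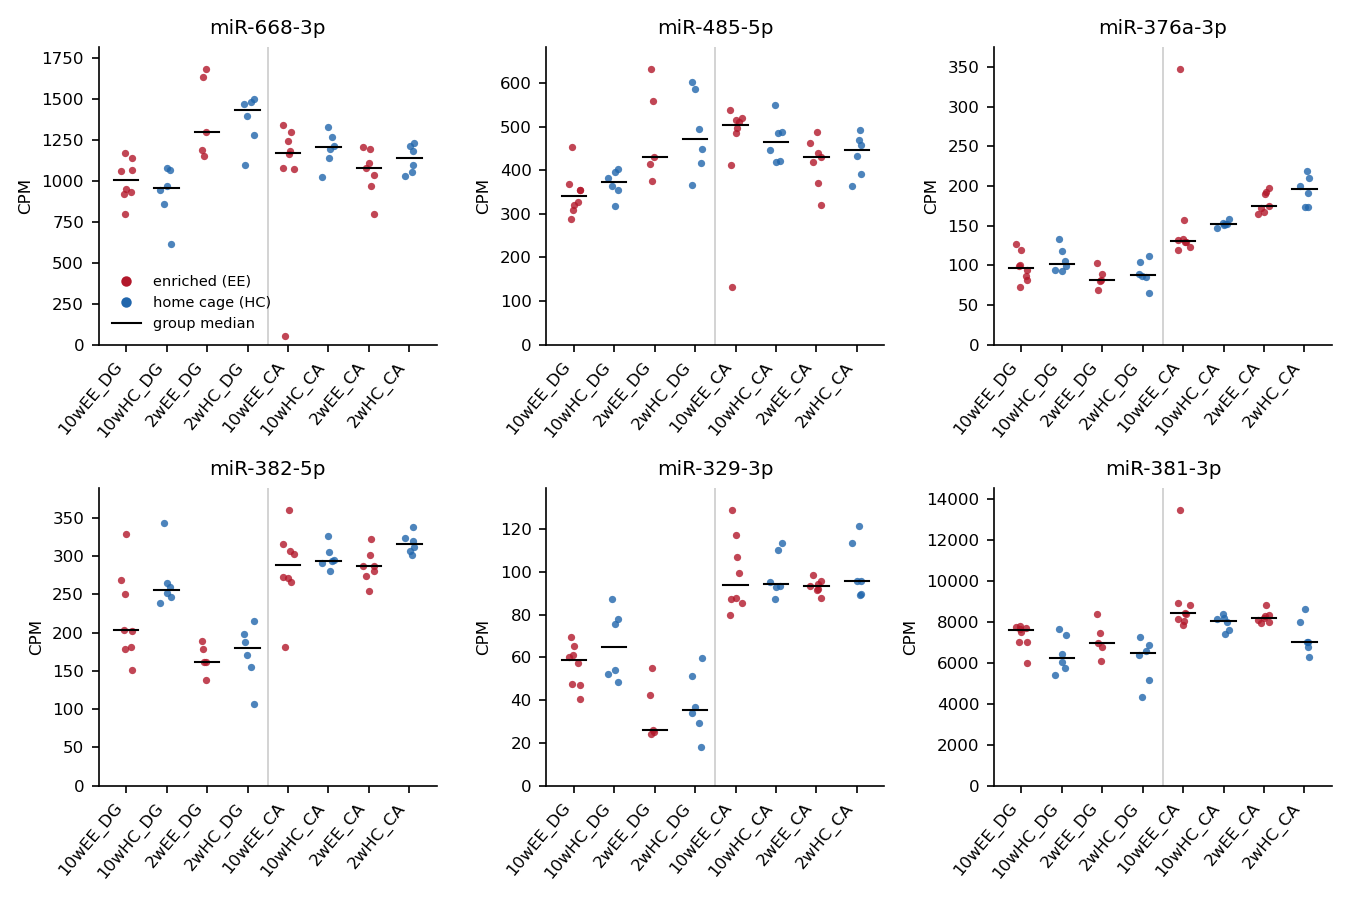
Level in CPM of 6 members in every library, by group (DG left, CA right; red for EE, blue for HC; line, group median). miR-668-3p and miR-485-5p stand lower in the 10 week than in the 2 week DG groups, miR-376a-3p lower in the 10 week than in the 2 week CA groups except for library 3 at 347 CPM, and miR-382-5p and miR-329-3p higher in the 10 week DG groups.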

How the data were processed

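Small RNA of 52 libraries was measured as deposited whole-number counts per mature miRNA. The counts come from CASAVA 1.8.2, cutadapt, STAR, HTSeq and the mm10 genome, all listed per the submitters' processing notes, without settings. The 5 closing rows of reads given to no miRNA were left out; reads aligned to several places were 59.3 to 71.0% of reads. The members and lists were chosen with earlier results of these data known. A count of 3 was worth 0.447 to 6.24 CPM, for counting error only.

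edgeR 4.0.16 (R 4.3.3; TMM, filterByExpr, quasi-likelihood test, Benjamini-Hochberg over all tested miRNAs, threshold 0.05) was fitted over 52 libraries for contrasts across regions, and over 25 DG or 27 CA libraries within a region. Arm balance used limma 3.58.1 on log2((5p + 0.5)/(3p + 0.5)). The fits were tested on simulated data. Alternatives were total counts, DESeq2 1.42.0 size factors and its Wald test, other filters and offsets, a replicate block and libraries left out (each library of the compared groups within a region; across regions library 3 of 10wEE_CA and, in edgeR contrasts that hold 2wEE_DG, each of its 5). Named were members that passed in a housing or time contrast, the 3 smallest p in each enrichment contrast, the 6 largest region differences, the 8 most abundant, members known from neurons or at the ends, and 4 hairpins per direction of arm balance; others were chosen after their values were seen. No 2 libraries were identical: over 147 pairs within groups, the lowest chi-square per degree of freedom was 11.7.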

Additional observations from a re-analysis of the deposited data

Results flagged for a closer look

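In each group of 5 to 8 libraries, a library was looked for whose gap to the nearest other was large against the group's range. The cluster's share, its ratio and the 8 most abundant members were searched. So were members that passed in a housing or time contrast, with or without library 3 of 10wEE_CA. Other members were not searched, and chance picks about 1 in 20 sets (5%). There were 18 such values, in 13.2% of the sets searched. Library 3 of 10wEE_CA accounts for 13 of them. The cluster's share was 10.51% there against 6.59 to 6.90% in the other 7 libraries, and its ratio to the rest of the domain 0.8789 against 0.228 to 0.248. High in it were miR-410-3p (31740 CPM against 12400 to 13580), miR-411-5p (24170 against 16540 to 18140), miR-381-3p (13440 against 7820 to 8909), miR-541-5p (9740 against 7253 to 8053) and miR-376a-3p (347.3 against 119 to 157). Low in it were miR-300-3p (5514 CPM against 6513 to 6816), miR-409-3p (628.1 against 1788 to 2183), miR-485-5p (133.1 against 412.5 to 538), miR-134-5p (99.84 against 139 to 159.8), miR-668-3p (52 against 1071 to 1336) and miR-412-5p (8.32 against 20.8 to 26.8). It was also the shallowest library, and the part of depth was not tested.

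The other 5 values, 3.68% of the sets, are no more than chance gives. Library 2 of 10wEE_DG had a ratio of 0.2588 against 0.233 to 0.2435 and miR-381-3p at 5964 CPM against 6991 to 7782. Library 5 of 10wHC_DG had miR-382-5p at 344 CPM against 239 to 265, library 5 of 2wEE_DG had miR-409-3p at 1783 CPM against 1322 to 1404, and library 6 of 2wEE_CA had miR-134-5p at 170.6 CPM against 147.5 to 157.

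Effects that differed between groups were also collected. The effect of enrichment on miR-134-3p in DG was -0.32 at 10 weeks and 0.14 at 2 weeks on the log2(CPM + 1) scale, a difference of -0.4574; edgeR's test of that difference gave -0.44 ± 0.19 (unadjusted p = 0.0289, adjusted p = 0.993). Without library 3, the region difference (log2 DG over CA) at 10 weeks minus that at 2 weeks passed in HC for miR-668-3p (-0.7266; -0.41 and 0.32 at 10 and 2 weeks), miR-485-5p (-0.5784; -0.37 and 0.20), miR-376a-3p (0.517; -0.54 and -1.06), miR-382-5p (0.6453; -0.19 and -0.84) and miR-329-3p (0.7135; -0.61 and -1.32). In EE it passed for miR-485-5p (-0.7495; -0.52 and 0.23), miR-668-3p (-0.6816; -0.26 and 0.42), miR-485-3p (-0.5112; -0.38 and 0.13), miR-134-3p (-0.499; -0.97 and -0.47) and miR-376a-3p (0.6215; -0.44 and -1.06). With all libraries none of these 10 passed.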

How the results depend on the processing

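The count of members lower in DG than in CA was 59, and 48 to 63 over the alternatives and housing groups; leaving out library 3 of 10wEE_CA or 1 of the 5 libraries of 2wEE_DG, the 6 such fits made, gave 58 to 60. The direction of 1 named value turned, that of miR-668-3p in DG against CA, which was -0.035 with no filter on low counts, against 0.02 as reported, and it passed in neither. EE against HC gave 0 members in every alternative but 1: without library 3 of 10wEE_CA, 1 member passed in CA at 2 weeks (range 0 to 1). Without that library, 10 against 2 weeks of HC in CA gave 2 members in place of 0 (range 0 to 2), and the region difference by time gave 5 in place of 0 in HC and likewise in EE. That region difference gave 1 member in HC with total counts, 1 with DESeq2 size factors, 1 at a mean of at least 10 CPM and 2 by DESeq2, and in EE 2 by DESeq2, 1 without library 1 of 2wEE_DG and 0 to 5 over the 6 libraries left out in turn. In DG, 10 against 2 weeks of HC gave 6 members, 4 to 6 under other settings without a block, and 2 to 6 with a library left out: 3 without library 1 of 2wHC_DG and 2 without library 4 of 2wHC_DG or library 4, 5 or 6 of 10wHC_DG. Arm balance gave 12 hairpins, 10 with an offset of 5, 13 without library 3 and 7 at a mean of at least 100 counts per arm, where fewer hairpins were tested. The cause of the other changes was not tested.

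The labels do not say whether DG and CA libraries of the same housing, time and number share an animal. EE and HC libraries cannot share 1 under this design. Deviations of libraries that share a number had correlations of -0.289 to 0.333 over 48 pairs, 17 of them over 0.1. These pairs were DG with CA, and also EE with HC. No set of pairs had all over 0.1, and the nearest was DG with CA of 2wHC with 5 of 6. Pairs of unlike number were not set beside them, so these values cannot decide whether DG and CA libraries share animals. The main fits took no pairing, and a replicate block was an alternative. Within a region that block joined libraries of unlike housing and time by number, so there it is not a block by animal. With the replicate block, 58 members passed in DG against CA, 8 in HC of DG by time, 0 in the other contrasts of edgeR, and 11 hairpins in arm balance. Over all alternatives, 36 values of named members no longer passed, 3 passed newly and 1 turned, and the rest kept direction and side of the threshold. Scaling moved the median of all miRNAs by at most 0.0742.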
